A study of Mus musculus with 30 samples.

Results

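The untreated colon of mice that carried a deletion of Smox was compared with that of wild-type (WT) mice, by bulk RNA sequencing of 6 of the 30 libraries of a study on colon carcinogenesis. Members were chosen by their labels: 3 libraries of genotype Smox and 3 of genotype WT, control treatment, no colitis and no tumor. All 6 mice were house-bred C57BL/6 males of 8 to 12 weeks, those of the Smox group being C57BL/6 Smox-/-, and none had received azoxymethane, dextran sulfate sodium or spermidine. The design text gives 3 mice per group and day 56. The labels name neither the deleted part of the gene nor the part of the colon sampled.

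Spermine oxidase, the product of Smox, oxidises spermine, yielding spermidine with hydrogen peroxide and an aldehyde as by-products. Polyamines serve growth and translation in the renewing epithelium of the gut, and the enzyme is known to be induced in inflamed mucosa. The colon wall joins that epithelium, with its absorptive and mucus-secreting cells, to immune cells of the lamina propria and to smooth muscle with its own nerve plexus. Bulk RNA sums all of these, so fewer cells of a type and less RNA per cell cannot be told apart.

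Totals of 53101147 to 81011304 estimated counts in Smox libraries and of 67255670 to 72268614 in WT libraries stand behind the levels below, given as CPM (counts scaled to the TMM-corrected size of the library). Colon epithelium was present in all 6, with Epcam at 2120 to 2244 CPM in Smox and 1934 to 2192 CPM in WT libraries. A pair of libraries stood apart by RNA of other tissues. WT replicate 3 held skeletal muscle RNA and was the highest library for all 7 defining markers of that tissue. A list of 20 skeletal muscle genes summed to 103 to 451 CPM in Smox libraries, against 183, 257 and 13420 CPM in WT replicates 1, 2 and 3. That library also had 0.63 CPM of Hoxb13, a Hox gene of the hindmost gut, where Smox libraries had 281.6, 121.3 and 126.1 CPM and WT replicates 1 and 2 had 374.2 and 399.7 CPM. Smox replicate 3 held RNA of a squamous epithelium, with Krt5, a keratin of the basal layer, at 595.3 CPM, against 0.12 and 23.82 CPM in Smox replicates 1 and 2 and at most 6.23 CPM in WT libraries. Results are therefore given with and without WT replicate 3.

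Smox transcript was present in every library of the deletion group. Its level was 28.68, 36.23 and 27.38 CPM in Smox libraries, against 26.68, 25.13 and 27.57 CPM in WT libraries. Smox replicate 3 lay within the WT range and replicates 1 and 2 above it. The log2 fold change of Smox over WT was 0.22 (SE 0.24; edgeR's quasi-likelihood test, Benjamini-Hochberg adjusted p = 0.62), and an exact two-sided permutation test of 3 against 3 gave p = 0.2, where the smallest possible is 0.1. The gene lies on GRCm38 chromosome 2 from 131491496 to 131525922. A gene-level count does not show which exons the RNA held, so the labels were not separated by this transcript.

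At an adjusted p under 0.05 in edgeR, 515 of 19558 genes tested rose in Smox colon (2.63%) and 649 fell (3.32%). Counts of list members that rose or fell with all libraries are to be read against these shares. Leaving out WT replicate 3 left 10 that rose (0.0502%) and 7 that fell (0.0352%) of 19910 tested, 0.0854% in either direction. Without WT replicate 3, all 515 genes that rose kept their direction, each at an unadjusted p under 0.05. So did 646 of the 649 that fell, 569 of them at an unadjusted p under 0.05. Over all genes tested without it, 11.3% were higher and 8.23% lower at that threshold. The called genes were selected in a fit that shares all other libraries, so this agreement was favoured in advance. The median log2 fold change of the genes that rose was 1.27 with all libraries and 1.23 without WT replicate 3. For the genes that fell it was -2.43 and, without that library, -1.58. WT replicate 3 was the highest of the 6 libraries in 609 of the genes that fell (93.8%), and the lowest in 252 of those that rose (48.9%). Other libraries weighed as much, since leaving out Smox replicate 2 gave 6 calls and leaving out Smox replicate 3 gave 6 as well. Of all listed genes, only Slc4a4 and mt-Atp6 were called in edgeR without that library.

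**Figure D1:**
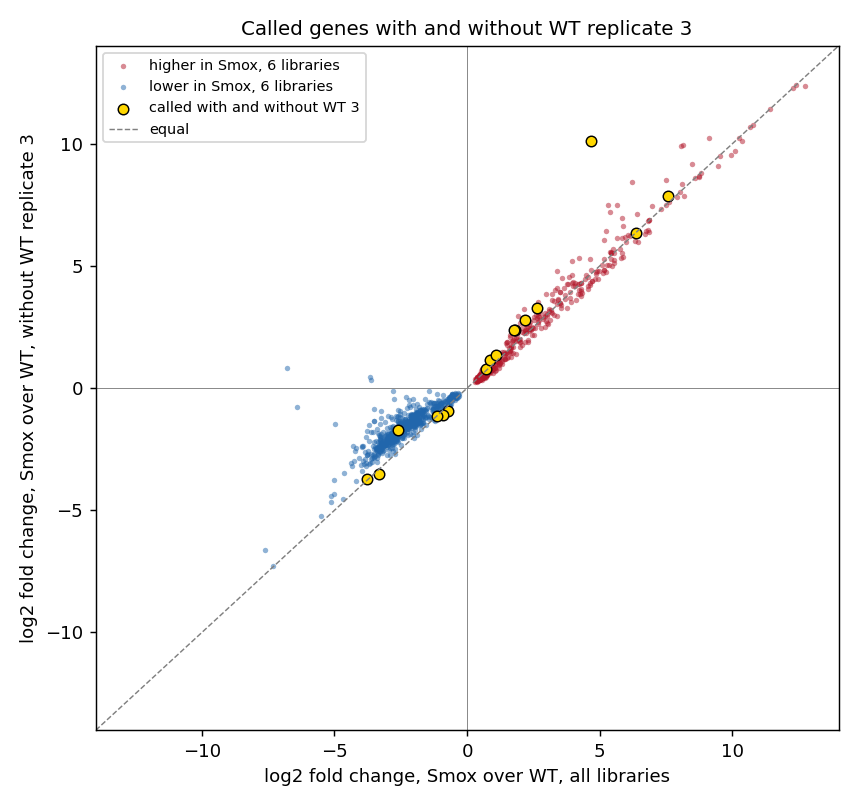
Each point is a gene called with all libraries, placed by its log2 fold change of Smox over WT in the fit of all libraries (x axis) and in the fit without WT replicate 3 (y axis), with the dashed line where both are equal. The genes that rose lie along the line (median 1.27 and 1.23), those that fell mostly lie above it (median -2.43 and -1.58), and gold circles are the 16 genes called both ways.

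Of the 17 genes called without WT replicate 3, 16 were also called with it in the same direction, and chromosome 2, where Smox lies, contributed 9 of the 17 while making up 7.44% of the genes tested. The 17 became 8 and 9 when Smox replicate 2 or 3 was left out too, and 6 and 3 with WT replicate 1 or 2 left out. Eif3j1, a translation initiation factor subunit 9.43 Mb from Smox, had 2.70, 3.05 and 2.59 CPM in Smox libraries, against 40.10, 33.95 and 40.23 CPM in WT libraries, with the reservation that reads may be shared with its copy Eif3j2. Jmjd7, a lysyl hydroxylase 11.5 Mb away, had 0.77, 0.87 and 0.39 CPM in Smox libraries and 8.07, 7.82 and 4.54 CPM in WT libraries. The groups lay far apart for both genes. Tmx4, a member of the thioredoxin family that sits in the endoplasmic reticulum membrane, is the closest to Smox of the 16, at 3.07 Mb (134594185 to 134644145). It fell to 13.28, 12.87 and 10.89 CPM in Smox libraries, against 26.70, 28.41 and 27.09 CPM in WT libraries (2.22-fold lower, log2 SE 0.19, edgeR adjusted p = 0.00804, and 0.0321 without WT replicate 3).

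The other 6 genes of chromosome 2 were also called both ways. Rhov, a small GTPase at 119269201 to 119271272, rose to 11.73, 7.41 and 12.34 CPM in Smox libraries, against 1.96, 2.11 and 5.12 CPM in WT libraries. Exd1, an exonuclease domain protein at 119516505 to 119547627, rose to 5.57, 3.10 and 5.28 CPM, against 0.85, 0.96 and 2.21 CPM in WT libraries. These neighbours rose in like proportion, by 1.78 and 1.80 on the log2 scale. Ocstamp, known in bone for the fusion of osteoclasts, rose 6.22-fold at a low level (0.95, 1.23 and 0.72 CPM in Smox libraries, against 0.06, 0.14 and 0.27 CPM in WT libraries). Bloc1s6, of a complex that builds lysosome-related organelles, rose 1.64-fold, and Spg11, a lysosomal protein whose gene overlaps Eif3j1 in the annotation, fell 1.90-fold. Scrn3, 58.2 Mb from Smox, fell 1.66-fold, although Smox replicates at 9.34, 7.90 and 9.29 CPM reached the 9.33 CPM of WT replicate 3.

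Outside chromosome 2, the genes called both ways included Nod2, the intracellular sensor of bacterial muramyl peptide (GRCm38 chromosome 8, 88647315 to 88688474). Nod2 rose to 6.80, 13.16 and 10.49 CPM in Smox libraries, against 1.42, 1.60 and 3.71 CPM in WT libraries (4.53-fold, log2 SE 0.46, edgeR adjusted p = 0.0204, and 0.0321 without WT replicate 3). The lowest Smox library was above the highest WT library. Slc6a9, a glycine transporter, rose to 41.20, 44.60 and 40.47 CPM in Smox libraries, against 16.81, 17.20 and 24.63 CPM in WT libraries. Clip2, a microtubule-binding protein, rose 1.81-fold. The processed pseudogene Pcna-ps2 had 10.58, 11.49 and 8.79 CPM in Smox libraries and at most 0.08 CPM in WT libraries. It shares sequence with Pcna, so the split of reads between the copies is uncertain. Pcna itself had 77.0, 94.3 and 69.3 CPM in Smox libraries and 125.5, 142.7 and 69.2 CPM in WT libraries (log2 -0.49, edgeR adjusted p = 0.264). Gm18234, another pseudogene, had 0.14 to 0.19 CPM in Smox libraries and no count in any WT library, which is at least 11-fold higher against a floor of 3 counts over the WT group. The variable segment Ighv2-5 and the mitochondrial gene mt-Atp6 complete the 16. Slc4a4, the basolateral sodium bicarbonate cotransporter of the crypt, fell without WT replicate 3 alone, at 119.7, 70.55 and 109.8 CPM in Smox libraries against 284.6 and 436.0 CPM in WT replicates 1 and 2 (edgeR adjusted p = 0.0445), with 61.1 CPM in WT replicate 3.

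Genes of neutrophil recruitment were higher in Smox colon, and 3 of them are shown first by their promoters. Cytokines of this axis act largely through NF-kappaB, so a core of its site, GGG followed by any 3 bases and TTCC, was searched on both strands of RefSeq promoters on GRCm38.p6, 250 bases before to 50 after the start. It was present in 3 of 21 called members of 5 inflammatory lists that had a promoter (14.3%), against 6.31% of 27025 genes with 1 or more promoters. The shares were not drawn alike. Promoters of the members came from fewer chromosomes, and the 27025 genes were not limited to genes tested. The windows that hold the core are printed here with the word in capitals, and overlapping copies on opposite strands run together. The 3 windows are given on the plus strand, and matches may lie on either strand.
Cxcl3, chr5:90785851-90786150: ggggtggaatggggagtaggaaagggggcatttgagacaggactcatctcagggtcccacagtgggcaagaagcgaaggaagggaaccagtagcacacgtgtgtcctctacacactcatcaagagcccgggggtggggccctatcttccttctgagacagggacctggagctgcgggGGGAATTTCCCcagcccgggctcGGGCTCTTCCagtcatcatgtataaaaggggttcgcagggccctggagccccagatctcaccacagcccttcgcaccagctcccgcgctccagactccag
Cxcl2, chr5:90903649-90903948: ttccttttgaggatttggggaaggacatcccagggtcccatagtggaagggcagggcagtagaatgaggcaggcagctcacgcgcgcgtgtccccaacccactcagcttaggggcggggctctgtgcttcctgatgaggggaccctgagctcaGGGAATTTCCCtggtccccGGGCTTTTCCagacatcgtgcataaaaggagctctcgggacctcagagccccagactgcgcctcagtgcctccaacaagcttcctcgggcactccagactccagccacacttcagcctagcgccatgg
Csf3r, chr4:126024409-126024708: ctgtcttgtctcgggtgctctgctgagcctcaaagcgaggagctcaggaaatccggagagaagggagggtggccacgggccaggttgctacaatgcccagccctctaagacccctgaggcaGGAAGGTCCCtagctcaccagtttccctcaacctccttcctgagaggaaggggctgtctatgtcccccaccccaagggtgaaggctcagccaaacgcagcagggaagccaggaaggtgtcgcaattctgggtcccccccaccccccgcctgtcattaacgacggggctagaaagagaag

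In Cxcl3 and Cxcl2, neighbouring chemokine genes, the window holds 3 matches each, at -73, -72 and -50 of the start in Cxcl3 and at -97, -96 and -78 in Cxcl2. Csf3r holds 1, at -129. A match describes letters only. The AP-1 word TGANTCA stood in 4 of the 21 (19.0%), against 8.97% of the genes, a difference that was not tested either.

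The chemokines with those promoters attract neutrophils through Cxcr2. Cxcl2 had 0.52, 11.25 and 4.25 CPM in Smox libraries, against 0.07, 0.10 and 0 CPM in WT libraries (log2 fold change 6.43, SE 1.5, edgeR adjusted p = 0.0232). Cxcl3 had 0.24, 5.64 and 11.49 CPM in Smox libraries and no count in WT libraries, at least 424-fold higher against the same floor. The groups did not overlap, yet Smox replicate 1 was more than an order of magnitude below replicates 2 and 3 in Cxcl3. Cxcl16, a transmembrane chemokine and ligand of Cxcr6, rose 2.19-fold (22.87, 43.87 and 27.87 CPM in Smox libraries, against 11.85, 18.34 and 12.95 CPM in WT libraries). Of 27 chemokine ligands tested, 5 rose (2.63% of all genes did) and none fell, and 15 had all Smox libraries above all WT libraries, where 14.0% of all genes tested did. Their median log2 fold change was 1.72, and 2.5 without WT replicate 3, against -0.01 over all genes tested with all libraries. Among 13 chemokine receptors 2 rose: Ccr2, of inflammatory monocytes, with 3.37, 9.30 and 2.81 CPM in Smox libraries against 0.88, 0.96 and 1 CPM in WT libraries, and Cxcr6, of tissue lymphocytes, with 2.97 to 3.23 CPM against 0.61 to 0.81 CPM.

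Neutrophil genes gave 6 of 18 that rose, where 2.63% of all genes did, and none that fell. Their median log2 fold change was 3.99, and 4.62 without WT replicate 3 (4.36 with 2 genes at 0 in WT put at their bound). Csf3r, the receptor for granulocyte colony-stimulating factor, had 0.79, 10.61 and 2.65 CPM in Smox libraries, against 0.12, 0.26 and 0.25 CPM in WT libraries (log2 4.47, SE 1.01, edgeR adjusted p = 0.0215). S100a8, the partner of S100a9 in calprotectin, had 2.28, 37.20 and 23.50 CPM in Smox libraries, against 0.03, 0.08 and 0.25 CPM in WT libraries. Smox replicate 1 was again the lowest of its group and still above WT. Cxcr2, the receptor named above, was at 0.06, 4.22 and 0.71 CPM in Smox libraries and 0, 0 and 0.13 CPM in WT libraries, so its groups overlapped and it did not pass (edgeR adjusted p = 0.0626). In Smox replicates 2 and 3, where this list was highest, squamous genes were highest too, and their part in it was not tested.

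Cytokines of the IL-1, IL-6, IL-17 and IL-23 axis gave 6 of 18 that rose (2.63% of all genes did) and a median of 3.69. Tnf, the tumour necrosis factor, rose 11.8-fold, to 3.86, 9.72 and 4.97 CPM in Smox libraries against 0.38, 0.82 and 0.37 CPM in WT libraries (log2 SE 0.75, edgeR adjusted p = 0.0204). All Smox libraries were several times above the highest WT library. Il1a, an alarmin of damaged epithelium, had 0.48, 8.77 and 3.53 CPM in Smox libraries and 0, 0.08 and 0.13 CPM in WT libraries. Il17a, the T cell cytokine that calls neutrophils, had 0.24, 0.82 and 0.17 CPM in Smox libraries and no count in WT libraries, at least 25-fold higher. Epithelial Il17c rested on 32 counts in Smox libraries and 1 in WT libraries. Without WT replicate 3 none of the genes of these 4 lists was called in edgeR, though 13 neutrophil, 11 cytokine, 16 ligand and 8 receptor genes were higher at an unadjusted p under 0.05, as were 11.3% of all genes tested. With the same libraries DESeq2 called 12, 8, 13 and 6 genes of the 4 lists higher (4.26% of all genes), and limma-voom with quality weights called 8, 6, 10 and 9 (11.3%).

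**Figure D2:**
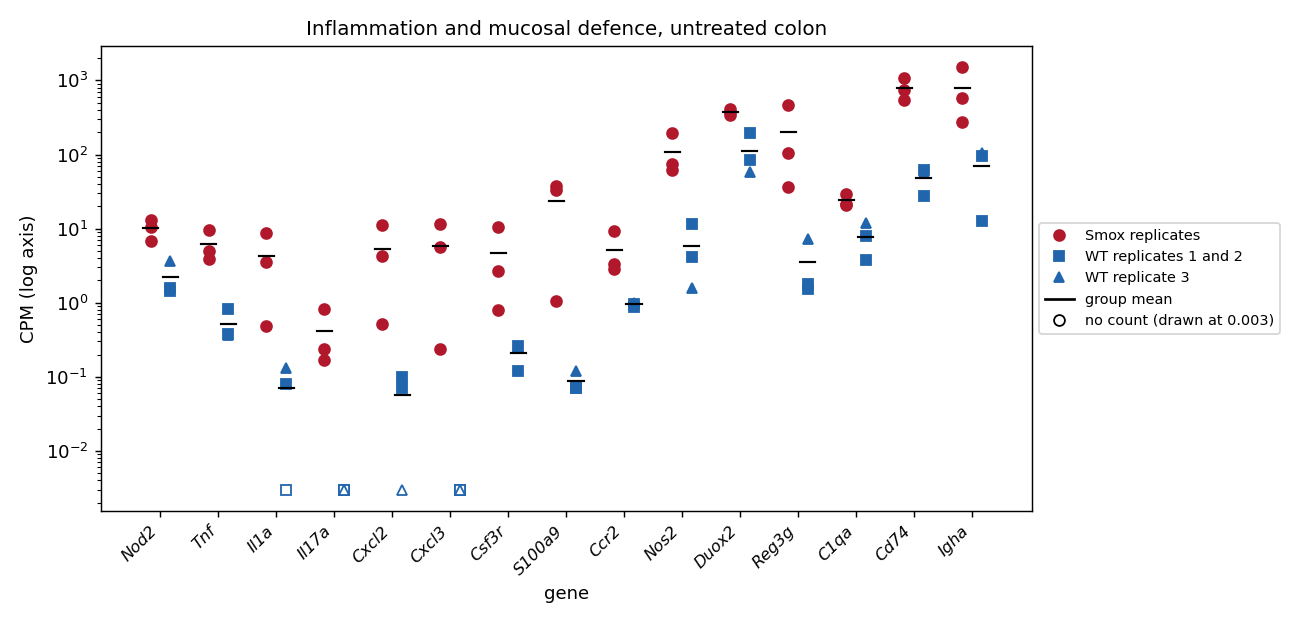
CPM on a log axis for 15 genes of inflammation and mucosal defence, with Smox replicates as red circles left of WT replicates in blue (a triangle for WT replicate 3), black bars for group means and open symbols for no count. All 3 Smox libraries lie above all WT libraries for each gene shown, for Nod2 at 6.80 to 13.16 CPM against 1.42 to 3.71 CPM. The genes were picked for display. This held for 9 of 18 neutrophil, 9 of 18 cytokine and 7 of 17 Reg and antimicrobial genes, and for 14.0% of all genes tested.

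Epithelial defence followed the same direction. Of 17 Reg lectins and epithelial antimicrobial genes 3 rose (2.63% of all genes did): Nos2, the inducible nitric oxide synthase, Reg3g, a lectin that kills Gram-positive bacteria, and Pla2g2a, a bactericidal phospholipase. Nos2 had 75.14, 192.1 and 61.59 CPM in Smox libraries, against 4.10, 11.62 and 1.58 CPM in WT libraries. Reg3g had 36.82, 459.7 and 103.4 CPM in Smox libraries, against 1.52, 1.78 and 7.18 CPM in WT libraries. Retnlb, a goblet cell lectin, was not called (58.31, 221.7 and 120.9 CPM in Smox libraries, against 5.49, 2.15 and 60.41 CPM in WT libraries). WT replicate 3 lay inside the Smox range, and Retnlb was not called without it either (edgeR adjusted p = 0.139). The median of the list was 1.84 with all libraries and 3.52 without that library. Pla2g2a is present in this C57BL/6 table although the strain is known for a disrupted copy of the gene, and its RNA was at 1.53, 28.18 and 3.06 CPM in Smox libraries against 0.21 to 0.62 CPM in WT libraries.

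Hydrogen peroxide is made in the colon by enzymes other than spermine oxidase, and 5 of 10 oxidase genes rose (2.63% of all genes did) with none falling. Duox2, the dual oxidase of the epithelial surface, had 378.8, 406.7 and 341.8 CPM in Smox libraries, against 85.58, 195.6 and 58.39 CPM in WT libraries (3.32-fold, log2 SE 0.46, edgeR adjusted p = 0.034). Smox libraries were close to each other here, unlike in the neutrophil genes. Duox1 had 2, 2.20 and 8.34 CPM in Smox libraries, against 0.13, 0.17 and 0.04 CPM in WT libraries (log2 5.17, SE 0.89, edgeR adjusted p = 0.0144). Duoxa1, the maturation factor of Duox1, had 0.36, 0.51 and 6.18 CPM in Smox libraries, against 0.06 to 0.08 CPM in WT libraries. The 3 are neighbours 9.14 to 9.19 Mb from Smox. Cybb, the phagocyte oxidase, rose to 7, 17.13 and 8.95 CPM, against 0.97, 2.69 and 2.94 CPM in WT libraries. Of 25 NRF2 and peroxide-detoxifying genes only Txnrd1, a thioredoxin reductase, passed the test (335.4, 544.7 and 337.2 CPM in Smox libraries, against 211.6, 230.7 and 240.5 CPM in WT libraries), and the list median was 0.28.

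Among lymphoid, macrophage and antigen-presenting lists, the calls came from B and plasma cell genes and from macrophage genes. Of 19 B and plasma cell genes 5 rose. Igha, the heavy chain of IgA, had 270.6, 1513 and 581.5 CPM in Smox libraries, against 12.7, 94.1 and 104.2 CPM in WT libraries. Derl3 of the plasma cell secretory pathway rose to 0.52, 1.97 and 1.08 CPM, against 0.23, 0.21 and 0.15 CPM in WT libraries. Sdc1, a plasma cell marker that the epithelium also makes, rose 1.71-fold. A total of 17 of the 19 had all Smox libraries above all WT libraries, where 14.0% of all genes did, and the 5 called stand against 2.63% of all genes. Among 17 macrophage genes 4 rose (2.63% of all genes did). C1qa of the complement system had 21.62, 29.67 and 20.77 CPM in Smox libraries, against 3.73, 7.84 and 11.77 CPM in WT libraries. All Smox libraries were above all WT libraries in 10 of the 17 and below all of them in 2. Over all genes tested these shares were 14.0 and 14.9%.

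None of 11 MHC class II genes was called in edgeR, although 10 of them had all Smox libraries above all WT libraries (14.0% of all genes). Cd74, the invariant chain, had 740.2, 1082 and 536.1 CPM in Smox libraries, against 27.5, 62.2 and 55.7 CPM in WT libraries (log2 4.02, SE 1.30, edgeR adjusted p = 0.0638). At an unadjusted p under 0.05, 7 of the 11 were higher (11.6% of all genes), DESeq2 called 6 higher (6.03%) and limma-voom with quality weights 8 (14.8%). Of 20 T and NK cell genes none was called either (8 higher at an unadjusted p under 0.05, 2 by DESeq2 and 17 by limma-voom). Yet 15 of the 20 had all Smox libraries above all WT libraries (14.0% of all genes). The median of the 20 was 1.79, and 2.61 without WT replicate 3. Gzmb, a cytotoxic granule protease, was at 2.83, 5.04 and 5.11 CPM in Smox libraries and 0.28, 0.44 and 1.39 CPM in WT libraries. Interferon-stimulated genes also gave none of 29 (8 higher at an unadjusted p under 0.05, 7 by DESeq2 and 7 by limma-voom, read against the same shares of all genes), and 12 of the 29 were below 0. Ido1, a tryptophan-degrading enzyme of that list, had 8.15, 65.76 and 7.20 CPM in Smox libraries and 0.85, 0.97 and 3.25 CPM in WT libraries. Their median was 0.20 with all libraries and 1.21 without WT replicate 3, where all 29 were above 0.

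Goblet cells are the mucus cells of the epithelium, and their genes had a smaller median than the Reg and antimicrobial (1.84) and oxidase (1.44) lists. Of 19 goblet cell genes 4 rose (2.63% of all genes did), and all 19 were above 0 with a median of 0.75. Without WT replicate 3, 17 were above and 2 below 0, and the median was 0.45. Spdef, the factor that drives goblet cell maturation, had 57.24, 114.4 and 111.6 CPM in Smox libraries, against 19.27, 17.73 and 21.72 CPM in WT libraries. Muc2, the main gel-forming mucin, had 2382, 4205 and 3663 CPM in Smox libraries, against 525.9, 630.7 and 724.8 CPM in WT libraries (log2 2.45, SE 0.77, edgeR adjusted p = 0.0599). Its groups were well apart and it still did not pass. Galnt12 of mucin glycosylation rose to 114.1, 152.8 and 134.8 CPM, against 62.6, 56.7 and 81.8 CPM in WT libraries. Sytl2 of vesicle release rose by 1.17 on the log2 scale.

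None of 22 colonocyte transport genes was called with all libraries in edgeR (1 higher and 1 lower at an unadjusted p under 0.05, 1 each by DESeq2, and 2 and 1 by limma-voom), and their median was -0.05. Nor was any of 17 intestinal identity transcription factors or 18 tight junction genes (3 and 2 higher at an unadjusted p under 0.05, 0 and 1 by DESeq2, 3 and 5 higher by limma-voom, which also called 1 identity factor lower). Of all genes, 11.6, 6.03 and 14.8% were higher by these 3 rules. All Smox libraries were above all WT libraries in 3 identity factors and 7 tight junction genes, where 14.0% of all genes did so. The list medians were 0.26 and 0.25. Hnf4a, a master regulator of enterocytes, had 967.6, 842.8 and 1127 CPM in Smox libraries and 827.7, 717.5 and 717.2 CPM in WT libraries (log2 0.38, SE 0.23). Cldn3, a sealing claudin, had 649.9, 573.4 and 668.7 CPM in Smox libraries and 547.9, 570.4 and 553.8 CPM in WT libraries. Of 33 genes of DNA replication and mitosis none was called or passed at an unadjusted p under 0.05 with all libraries in edgeR, none by DESeq2 and 1, lower, by limma-voom. Mki67, the proliferation antigen, had 172.6, 252.8 and 147.7 CPM in Smox libraries, inside the span of the WT libraries at 193.1, 269.8 and 78.6 CPM.

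Of 21 genes of a fetal-like regenerative programme 4 rose (2.63% of all genes did), among them Ly6a, Anxa1 and Plaur, and 16 were above 0, with a median of 0.66 and, without WT replicate 3, 1.01. Plaur, the urokinase receptor, had 18.45, 55.21 and 25.61 CPM in Smox libraries, against 4.14, 4.56 and 6.75 CPM in WT libraries. Egfr, the epidermal growth factor receptor, was the single call of 14 genes of the EGF family, whose median was 0.12. It rose 1.77-fold, to 46.81, 59.70 and 52.31 CPM against 34.31, 33.94 and 21.43 CPM in WT libraries. Among 17 stem and crypt base genes 2 rose, Olfm4 and Ephb2, while 10 were above and 7 below 0, and 4 above and 13 below 0 without WT replicate 3 (median 0.08 and -0.26). Ephb2, a receptor graded along the crypt, rose by 1.19 on the log2 scale with WT replicate 3 the lowest at 15.99 CPM. In lipid synthesis Srebf2, the transcription factor of cholesterol genes, rose 1.38-fold and Fasn, the fatty acid synthase, 1.63-fold, the only calls among 27 genes. Mmp10, a matrix-degrading stromelysin, was the single call of 17 metalloproteinases and inhibitors, with 67.35 CPM in Smox replicate 2 against 0.89 and 3.46 CPM in Smox replicates 1 and 3 and at most 0.18 CPM in WT libraries.

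Among 24 genes of polyamine catabolism and synthesis 1 was called, where 2.63% of all genes rose and 3.32% fell. Arg1, the arginase that makes the ornithine from which polyamines are built, rose to 1.84, 36.81 and 155.1 CPM in Smox libraries, against 0.13, 0.18 and 0.13 CPM in WT libraries (log2 8.73, SE 2.02, edgeR adjusted p = 0.0229). It was highest in Smox replicate 3, the library with squamous RNA. Slc12a8, which has been linked to polyamine transport in human cells, was not called (37.93, 79.04 and 59.74 CPM in Smox libraries, against 26.02, 20.21 and 5.10 CPM in WT libraries, edgeR adjusted p = 0.0789). The list median was 0.13 and, without WT replicate 3, 0.17. Of 19 aldehyde dehydrogenases, enzymes that clear reactive aldehydes, Aldh1a3 and Aldh3b2 rose and Aldh7a1 fell. Aldh7a1 had 18.43, 12.55 and 15.15 CPM in Smox libraries, against 27.37, 23.22 and 40.38 CPM in WT libraries, with no overlap.

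Genes of the enteric nervous system were lower in Smox colon. Of 22 enteric neuron genes 8 fell (3.32% of all genes did) and all 22 were below 0, with a median of -2.79, and -1.91 without WT replicate 3. Tubb3, a neuronal tubulin, had 7.83, 3.25 and 3.49 CPM in Smox libraries, against 19.07, 16.35 and 70.53 CPM in WT libraries (7.28-fold lower, log2 SE 0.65, edgeR adjusted p = 0.0215). Without WT replicate 3 it was 3.58-fold lower (adjusted p = 0.135), so that library moved the estimate more than 1.5 times. Snap25 and Syt1 of synaptic vesicle release did likewise, with log2 fold changes of -2.81 and -3.03 and, without that library, -1.94 and -2.20. Of 12 enteric glia genes 5 fell, with a median of -2.34, and -1.50 without WT replicate 3. Sox10, a transcription factor of glia, had 2.38, 0.51 and 0.88 CPM in Smox libraries, against 5.71, 5.60 and 15.99 CPM in WT libraries, with no overlap. Without WT replicate 3 no nerve or glia gene was called in edgeR, while 12 neuron and 6 glia genes were lower at an unadjusted p under 0.05 (8.23% of all genes), DESeq2 called 6 and 1 lower (1.86%) and limma-voom 18 and 7 (11.6%).

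Muscle genes were lower in level as well. All 18 smooth muscle contractile genes were below 0 with a median of -1.65, 15 had all Smox libraries below all WT libraries, where 14.9% of all genes did, and 1, Tpm1, fell (3.32% of all genes did). Tpm1, a tropomyosin, had 752.7, 539.8 and 525.0 CPM in Smox libraries, against 928.9, 1217 and 2325 CPM in WT libraries. Myh11, smooth muscle myosin, had 919.6, 316.1 and 310.6 CPM in Smox libraries, against 1401, 2339 and 1462 CPM in WT libraries (log2 -1.75, SE 1.03, edgeR adjusted p = 0.304). Smox replicate 1 was nearer to WT than replicates 2 and 3. How much of the muscle coat each library held is not given by the labels, and its part in the nerve difference was not tested. Of 20 skeletal muscle genes none was called in edgeR (13 lower at an unadjusted p under 0.05 against 12.6% of all genes, 8 lower by DESeq2 against 7.72%, and 4 higher and 1 lower by limma-voom, which called 15.4% of all genes lower). Their median was -4.76 with all libraries and 3.93 without WT replicate 3, and Tnnt3, a fast troponin, had 0.14, 7.37 and 46.23 CPM in Smox libraries against 0.75, 1.80 and 1854 CPM in WT libraries.

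**Figure D3:**
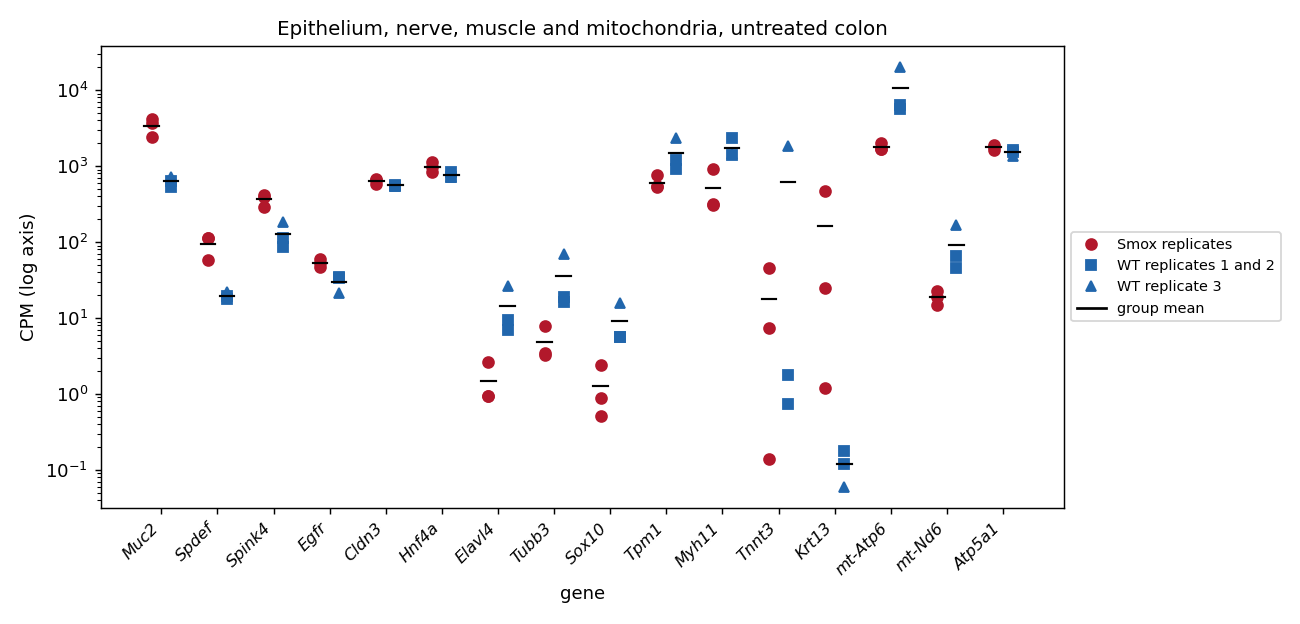
CPM on a log axis for 16 genes of epithelium, nerve, muscle, squamous lining and mitochondria, with Smox replicates as red circles left of WT replicates in blue (a triangle for WT replicate 3) and black bars for group means. WT replicate 3 is the highest library for Tubb3 at 70.53 CPM and for mt-Atp6 at 20202 CPM, and Krt13 spans 1.21 to 468.3 CPM among Smox libraries.

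Squamous genes gave 6 of 16 that rose (2.63% of all genes did) and a median of 5.95, and 8.87 without WT replicate 3. With the 3 genes that then had no WT count put at their bound of 3 counts, that median was 8.78. Krt13, a keratin of the lining near the anus, had 1.21, 24.69 and 468.3 CPM in Smox libraries, against 0.18, 0.12 and 0.06 CPM in WT libraries. Only 2 of the 16 had all Smox libraries above all WT libraries, which 14.0% of all genes did. Summed over the list, Smox replicates 1, 2 and 3 had 55.8, 167 and 3603 CPM and WT libraries 21.6 to 80.8 CPM. Some of the largest rises, such as Psca, Sprr2d and Ppbp, followed the same order of libraries, with Ppbp, a chemokine precursor, at 0.22, 5.65 and 125.8 CPM in Smox libraries. Prss22, a trypsin-like protease, had 1.27, 34.83 and 40.35 CPM in Smox libraries against at most 0.13 CPM in WT libraries.

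The mitochondrial genome was lower in Smox colon. It took 3.30, 3.12 and 4.13% of counts in Smox libraries, against 8.42, 6.95 and 21.7% in WT libraries, with no overlap. All 15 of its genes tested fell (3.32% of all genes did), with a median log2 fold change of -1.93. The ATP synthase subunit mt-Atp6 had 2007, 1668 and 1657 CPM in Smox libraries, against 6331, 5572 and 20202 CPM in WT libraries, 6.02-fold lower with WT replicate 3 and 3.28-fold lower without it (log2 SE 0.41, edgeR adjusted p = 0.00626 and 0.0445). It was the only one of the 15 that passed without that library, 13 being lower at an unadjusted p under 0.05 and the median -1.06. mt-Nd6, read from the other strand, had 19.05, 14.79 and 22.42 CPM in Smox libraries, against 65.84, 45.29 and 166.1 CPM in WT libraries. Nuclear genes of the same complexes gave no such calls. None of 34 was called in edgeR (1 higher and 3 lower at an unadjusted p under 0.05, 1 lower by DESeq2 and 2 higher by limma-voom), with a median of -0.10. Atp5a1, the catalytic-head subunit of ATP synthase, had 1879, 1631 and 1781 CPM in Smox libraries and 1635, 1554 and 1351 CPM in WT libraries.

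**Figure D4:**
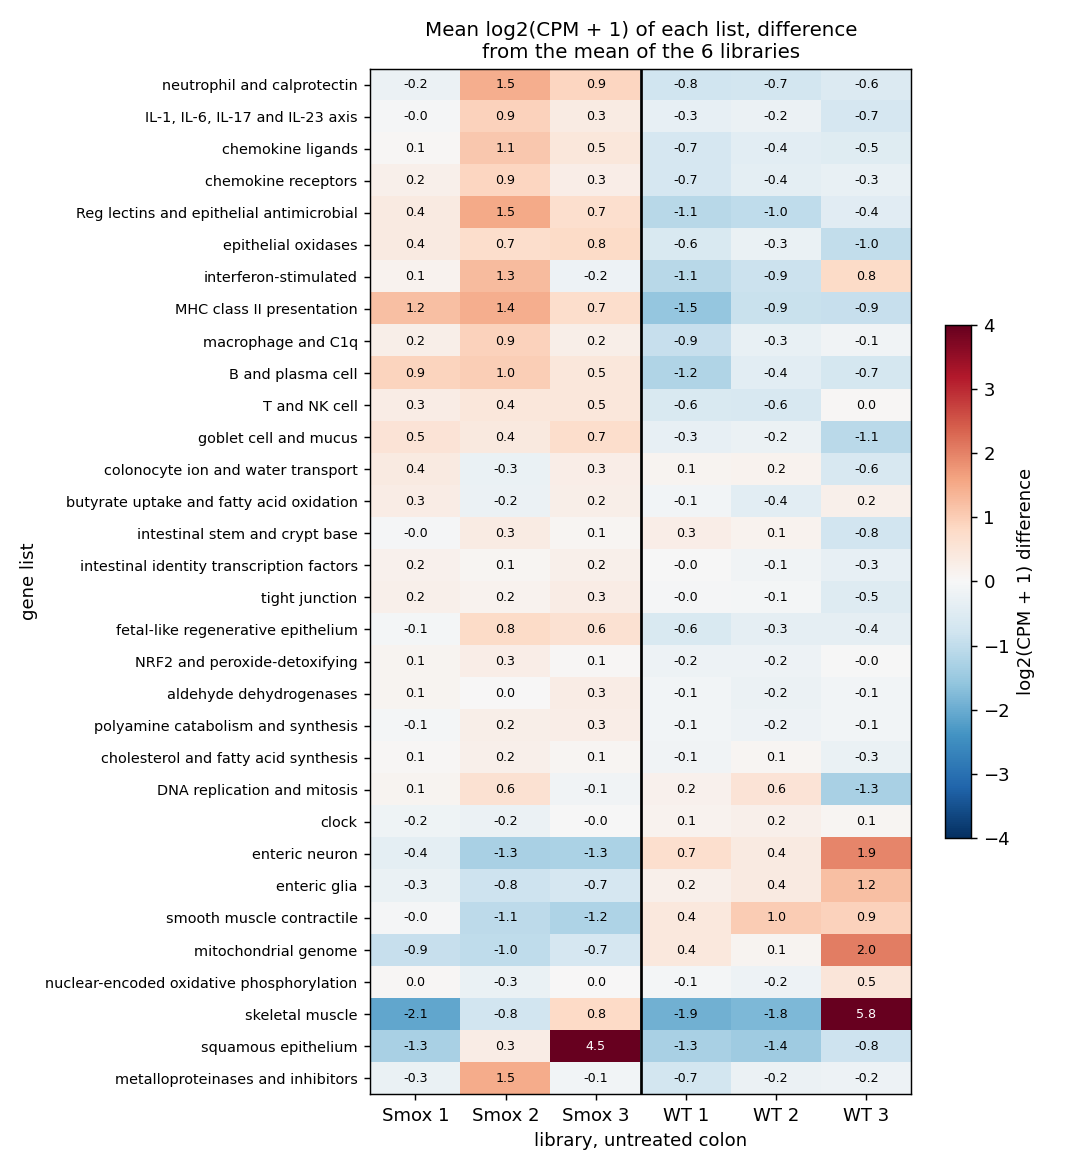
Mean log2(CPM + 1) of each gene list (rows) in each library (columns, Smox left of WT), as the difference from the mean of the 6 libraries, with colours that saturate at 4. Neutrophil genes stand at -0.24, 1.47 and 0.86 in Smox replicates 1 to 3, skeletal muscle genes at 5.79 in WT replicate 3 and squamous genes at 4.54 in Smox replicate 3.

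Clock genes were compared because the hour of dissection is not in the labels. Of 18, Nr1d2, a nuclear receptor that represses clock targets, fell 1.57-fold, at 45.19, 46.31 and 56.79 CPM in Smox libraries against 75.82, 88.64 and 68.65 CPM in WT libraries. Dbp, a rhythmic transcription factor, had 10.52, 10.59 and 13.97 CPM in Smox libraries and 28.47, 32.25 and 30.59 CPM in WT libraries, without passing (edgeR adjusted p = 0.0686). Its groups did not overlap. Of 16 endothelium genes 1 fell (3.32% of all genes did), while 6 were above and 10 below 0, and 8 and 8 without WT replicate 3. It was Lyve1, of lymphatic vessels, at 7.12, 11 and 5.90 CPM in Smox libraries, against 20.22, 25.53 and 34.90 CPM in WT libraries.

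The closest comparison in the study is the same pair of genotypes after 56 days of 14 mM spermidine in the drinking water, with other mice on both sides. There 6 genes rose (0.0307%) and 10 fell (0.0511%), 0.0818% in either direction. Of these, 4 had also risen and 3 had also fallen in untreated colon. Eif3j1, Jmjd7 and Pcna-ps2 were among them, at -3.36, -3.19 and 7.61 on the log2 scale with spermidine and -3.78, -3.34 and 7.56 untreated. Of the 515 genes that rose untreated, 218 were below 0 with spermidine, and of the 649 that fell, 554 were above 0. The difference between the genotype effects, untreated minus spermidine, passed in edgeR for 569 genes (2.91%), of which 142 (0.726%) were more positive in untreated colon and 427 (2.18%) more negative. It passed for 9 genes without WT replicate 3, 859 without WT replicate 2 and 311 when replicate 3 of the WT spermidine group was left out. Only 0 or 1 passed on leaving out untreated Smox replicate 2 or 3, replicate 1 or 2 of the WT spermidine group, or replicate 1 or 3 of the Smox spermidine group, although 3243 to 3672 genes had an unadjusted p under 0.05 in these fits. Tmx4 differed in direction: its log2 fold change of Smox over WT was -1.15 untreated and 0.67 with spermidine (difference -1.82, SE 0.26, edgeR adjusted p = 0.0095, and 0.0191 without WT replicate 3). With spermidine it had 16.05, 16.17 and 22.47 CPM in Smox libraries and 10.37, 11.33 and 12.63 CPM in WT libraries. Untreated WT colon was thus the only one of the 4 groups above 26 CPM. Clip2 was higher in untreated Smox colon and had 90.12, 88.16 and 68.87 CPM in Smox against 97.75, 117.3 and 115.6 CPM in WT libraries with spermidine (difference 1.28, edgeR adjusted p = 0.0319, and 0.0369 without WT replicate 3).

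Among lists, the difference was called for 8 of 22 enteric neuron genes, all more negative in untreated colon, and for 5 of 15 mitochondrial genes. For Tubb3 the difference was -3.95 (edgeR adjusted p = 0.0309, and 0.0857 without WT replicate 3). Its levels with spermidine were 20.68, 8.08 and 15.98 CPM in Smox libraries and 6.07, 4.73 and 10.20 CPM in WT libraries. No neutrophil gene or chemokine ligand was called for the difference in edgeR. At an unadjusted p under 0.05 in edgeR 6 and 8 passed, as did 3977 of all 19558 genes tested. DESeq2 called 4 and 2 (1804 of all genes) and limma-voom 4 and 5 (4498 of all genes). The median log2 fold changes of these lists with spermidine were 0.80 and 0.54. Duox1 was called for the difference (4.01, edgeR adjusted p = 0.0497, and 0.109 without WT replicate 3). It was at 0.63, 1.96 and 0.39 CPM in Smox and 1.04, 0.12 and 0.17 CPM in WT libraries with spermidine. B and plasma cell genes had a median of 2.61 untreated and 2.38 with spermidine. Their mean log2(CPM + 1) with spermidine was 4.16, 1.90 and 2.35 in Smox replicates 1, 2 and 3 and 2.01, 2.31 and 2.08 in WT libraries, so Smox spermidine replicate 1 stood far above WT, replicate 2 lay below all WT libraries and replicate 3 just above the highest. Smox itself passed for the difference (1.28, edgeR adjusted p = 0.0449), with 18.61, 26.65 and 22.80 CPM in Smox and 48.85, 49.37 and 43.68 CPM in WT libraries with spermidine, but not without WT replicate 3 (adjusted p = 0.08).

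**Figure D5:**
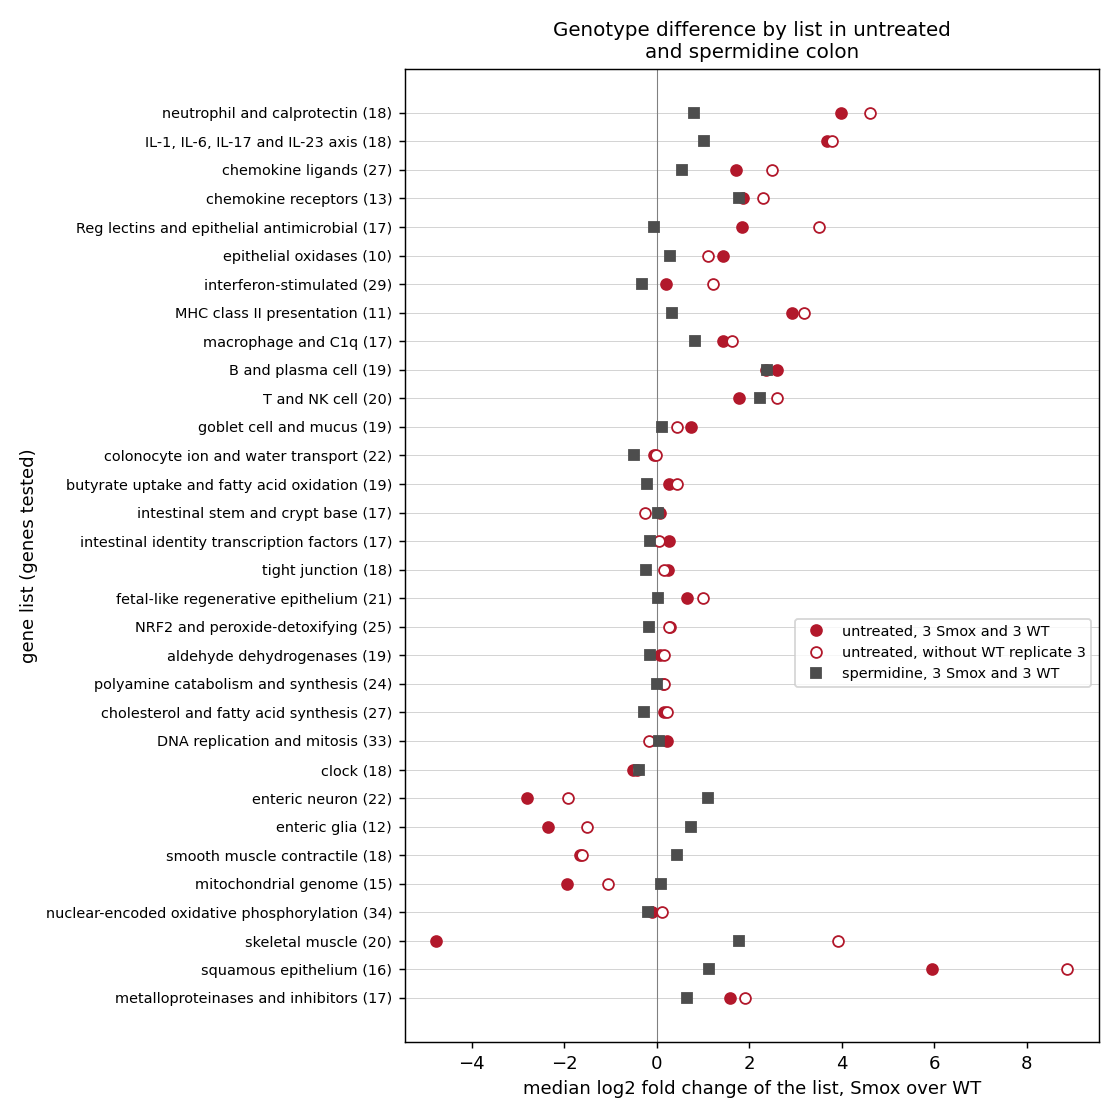
Median log2 fold change of Smox over WT for each gene list, in untreated colon with all libraries (filled circles) and without WT replicate 3 (open circles), and with spermidine (squares), with the number of genes tested in brackets. Enteric neuron genes lie at -2.79, -1.91 and 1.11, and skeletal muscle genes at -4.76, 3.93 and 1.79.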

How the data were processed

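Colon RNA was purified on RNeasy columns and made into libraries with the NEBNext Ultra II Directional kit, per the labels' protocols. The submitters' processing notes name fastp, Salmon, DESeq2 and build GRCm38, with no settings or versions. The authors deposited expected counts (estimated counts per gene, whole numbers) for 31023 genes in 30 libraries, and the way reads are split between near-identical copies follows their quantification. Genes were named and placed by identifier with GENCODE vM21 (GRCm38), which held 30965 of them. In edgeR 4.0.16 (R 4.3.3), filterByExpr with a minimum count of 10 and total of 15 kept 19558 genes. A robust quasi-likelihood model with TMM scaling and 1 mean per group was fitted to all 30 libraries (20 residual degrees of freedom), so that groups share 1 estimate of spread. Scaling and filter were redone without WT replicate 3, which kept 19910 genes. The Benjamini-Hochberg adjustment covered every gene tested, with a threshold of 0.05, and "rose" and "fell" are used for genes that passed. DESeq2 1.42.0 and limma 3.58.1 served as alternatives, and other scalings, filters, smaller fits, a skeletal muscle covariate and omission of each library were tried. On simulated data the procedure recovered 41% of 2-fold and 83% of 4-fold changes, and 6.06% of its calls were false. All replicates of a simulated group shared their mean and spread. No library that stood apart was therefore simulated, and these shares do not cover such a library.

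The comparison, the gene lists and the rule for named genes were chosen with earlier results of these data known. Named genes are Smox, genes called with and without WT replicate 3, the 10 largest rises and falls (at least 2 CPM in the higher group, 3 counts in the lower group, groups apart, no predicted genes, immunoglobulin segments or mitochondrial genes), up to 4 called members of a list, up to 4 with the largest change without WT replicate 3, the 2 most abundant where none was called, the 10 smallest p values for the difference from spermidine colon, and markers. Depth was 53101147 to 81011304 counts in the 6 libraries. Replicate libraries of the untreated groups differed by more than counting noise. WT replicate 3 differed from WT replicates 1 and 2 by a chi-square per gene of 789.3 and 1057.7. No pair of replicates in another group of the study exceeded 484.5. The spread shared by all groups may therefore be too small for the comparison that includes WT replicate 3. Counts are not independent molecules, so floors cover counting error only.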

Additional observations from a re-analysis of the deposited data

Results flagged for a closer look

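A set of 25 named genes had a genotype effect that differed between untreated and spermidine colon, by the interaction test in edgeR (adjusted p under 0.05 over all genes tested). The values are untreated minus spermidine, in log2, and other mice stand on both sides. No explanation was weighed.

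Of the genes more positive in untreated colon, Il17c differed by 4.92 (1 count in untreated WT libraries), Duox1 by 4.01, Spink4 by 2.01, Prag1 by 1.33, Smox and Clip2 by 1.28 each, Sdc1 by 0.94 and Srebf2 by 0.67. Prag1, a pseudokinase, had 60.45, 65.30 and 83.37 CPM in Smox libraries and 40.76, 39.59 and 28.05 CPM in WT libraries when untreated.

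Of those more negative in untreated colon, genes of neurons were Kcnc2 at -5.39, Gria2 at -5.14, Rbfox1 at -4.82, Elavl4 at -4.74, Elavl3 at -4.21, Syt1 at -4.10, Tubb3 at -3.95, Snap25 at -3.91, Stmn2 at -3.88 and the peptide genes Nmu at -4.61 and Scg2 at -3.68. Eef1a2, a translation elongation factor of nerve and muscle, was at -5.14, Col11a1, a collagen chain, at -4.83 and Tpm1 at -1.64. The mitochondrial genes mt-Atp6 and mt-Nd6 were at -2.90 and -2.39, and Tmx4 at -1.82.

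Without WT replicate 3, Tmx4 (adjusted p = 0.0191) and Clip2 (0.0369) of the 25 still passed in edgeR, and the other 23 had adjusted p values of 0.0558 to 0.165.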

How the results depend on the processing

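No paired analysis was possible because the titles carry only library numbers that are not shared between groups. The count of 1164 called genes was 592 with no filter on low counts, 2689 in DESeq2, 5912 in limma-voom with quality weights, 1 in a fit of the 6 untreated libraries and 9 without WT replicate 3 and Smox replicate 3 together, and 6 to 1351 when 1 library was left out (6 without Smox replicate 2, 6 without Smox replicate 3, 17 without WT replicate 3). Genes that rose were 44.2% of calls, and 60.2% of 902 calls with a skeletal muscle covariate. The count of 17 without WT replicate 3 was 1218 in DESeq2, 4564 in limma-voom, 93 in a fit without AOM-DSS libraries, 2 in a fit of untreated libraries alone and 7 with the covariate, and 3 to 21 when a further library was left out, where a lone WT library is assumed to vary like the other groups. The 569 genes with a different effect under spermidine were 261 with no filter, 1804 in DESeq2, 4498 in limma-voom, 0 without both libraries named above (3087 at an unadjusted p under 0.05) and 0 to 859 when 1 library was left out (9 without WT replicate 3). RLE scaling and a filter of 1 CPM kept all 3 counts within 1.5 times. The Smox fold change stayed between 0.07 and 0.36 and uncalled throughout. Skeletal muscle values turned sign: the list median was 3.28 in limma-voom, 0.07 with the covariate, 2.03 without both libraries and 3.93 without WT replicate 3, and Tnnt3 was 3.30, 1.59 and 3.83 in limma-voom, without both and without WT replicate 3. Mki67 was -0.23, -0.09 and -0.25 in those fits and -0.18 without Smox replicate 2. Hoxb13 was 0.23 with the covariate. With each library left out in turn Tnnt3 spanned -7.42 to 3.83, Mki67 -0.25 to 0.48 and the skeletal muscle median -6.35 to 3.93. The causes were not tested. Depth was not varied.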
